A study of Mus musculus with 4 samples.

Results

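Thin and thick filament genes of the cardiac sarcomere were followed across 4 mouse heart sections: the troponin genes Tnnt2, Tnni3, Tnni1 and Tnnc1, the tropomyosin gene Tpm1, the actin gene Actc1, the myosin light chain genes Myl2 and Myl3, the Z-disc gene Actn2 and the titin gene Ttn. They are 10 of the 21885 genes in the count tables, chosen by name from their roles, and each was matched to 1 entry by its symbol. All hearts came from Collagen1a1-GFP mice of 8 to 12 weeks, in which GFP marks cells that use a collagen promoter. The groups were 1 healthy control section, 1 section at 3 days post-infarction (3 dpi) and 2 sections at 5 dpi, written 5 dpi F and 5 dpi M after their sex labels, while the control and 3 dpi hearts were labelled female. Infarcts were made by ligation of the left anterior descending coronary artery. Each section is 1 heart, so the control and 3 dpi had no replicate. Polyadenylated RNA was counted as unique molecules (UMIs) on a Visium grid, where a spot is a small region that can hold several cells of different types.

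In the sarcomere, the contractile unit of striated muscle, thin filaments of actin slide along thick filaments of myosin. Calcium binds troponin C (Tnnc1), troponin I (Tnni3 in the adult heart, Tnni1 in the fetal heart) then releases its hold on actin, and troponin T (Tnnt2) carries the signal to tropomyosin (Tpm1), which uncovers the myosin sites on cardiac actin (Actc1). Myl2 and Myl3 are the ventricular regulatory and essential light chains that sit on the myosin neck, alpha-actinin (Actn2) anchors thin filaments at the Z-disc, and titin (Ttn) spans from Z-disc to M-band as a spring.

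Kept spots numbered 1146 to 1741 per section with 6250183 to 11010109 UMIs, a median of 4967.5 to 6935 per spot. The mitochondrial share of UMIs was highest in the control, with 40.1% against 21.4% at 3 dpi, 13.3% in 5 dpi F and 14.3% in 5 dpi M, and levels are therefore given as CPM, scaled to 1e+06 non-mitochondrial UMIs. Of 4 Y-linked genes, 704 UMIs were counted in 5 dpi F, 1 in 5 dpi M and 0 in the other sections, so the 5 dpi sections go against their sex labels and the letters F and M are names only. Spot barcodes name array positions and are shared by design, 446 to 1165 of them between pairs of sections. In bulk regions such as these spots, fewer cardiomyocytes and less RNA per cardiomyocyte cannot be told apart.

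The promoters of 4 members are shown because they differed in the results: Tnni3 and Myl3 were among the members that fell most inside infarcted hearts, and Tnnt2 and Actc1 among those that fell least. This choice was made after the values were seen. Windows run from 250 bases before to 50 after the RefSeq start site, 5′ to 3′ on the gene's strand (GRCm38.p6): Tnni3 at chr7:4522479-4522778 on the minus strand, Myl3 at chr9:110763428-110763727 on the plus strand, Tnnt2 at chr1:135836084-135836383 on the plus strand, the first of 2 windows listed for it, and Actc1 at chr2:114052826-114053125 on the minus strand. Capitals mark CATTCC (the core of the M-CAT motif), GATAA (the GATA motif) and the CArG box, known as the motif of serum response factor, on either strand.
Tnni3: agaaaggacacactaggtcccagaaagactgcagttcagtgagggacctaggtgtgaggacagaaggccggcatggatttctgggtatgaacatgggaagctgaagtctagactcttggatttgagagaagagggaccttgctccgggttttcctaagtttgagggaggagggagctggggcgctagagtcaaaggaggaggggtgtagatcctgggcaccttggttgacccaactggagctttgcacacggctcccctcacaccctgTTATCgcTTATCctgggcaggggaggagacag
Myl3: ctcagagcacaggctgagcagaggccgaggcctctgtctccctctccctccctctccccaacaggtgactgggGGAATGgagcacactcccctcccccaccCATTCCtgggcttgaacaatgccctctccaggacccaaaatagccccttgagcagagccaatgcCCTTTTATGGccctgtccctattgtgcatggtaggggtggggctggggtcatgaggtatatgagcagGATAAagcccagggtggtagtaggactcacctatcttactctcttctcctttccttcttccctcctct
Tnnt2: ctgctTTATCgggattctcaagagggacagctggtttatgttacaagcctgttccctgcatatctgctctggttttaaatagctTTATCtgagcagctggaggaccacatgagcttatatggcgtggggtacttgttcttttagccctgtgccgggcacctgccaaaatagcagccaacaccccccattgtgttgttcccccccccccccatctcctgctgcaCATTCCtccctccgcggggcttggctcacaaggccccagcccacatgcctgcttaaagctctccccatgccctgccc
Actc1: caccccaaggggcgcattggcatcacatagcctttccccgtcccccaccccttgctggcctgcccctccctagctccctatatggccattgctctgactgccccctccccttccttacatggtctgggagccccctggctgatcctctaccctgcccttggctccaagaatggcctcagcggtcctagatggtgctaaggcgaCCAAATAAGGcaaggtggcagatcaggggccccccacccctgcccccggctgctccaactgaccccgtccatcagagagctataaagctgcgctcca
All 10 members had a window, 13 in all. CATTCC was in windows of 5 of 10 members (Tnnt2, Tnnc1, Tpm1, Myl3 and Ttn) and in 14.7% of all 32851 windows, GATAA in those of 4 members (Tnnt2, Tnni3, Myl2 and Myl3) and 25.4% of windows, and the CArG box in those of Actc1 and Myl3 and in 1.63% of windows. Motifs were searched separately, so matches of different motifs may overlap. Members of both kinds held matches, which are letters in a window and not shown sites.

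Across whole sections, the filament genes together made up 7.59% of non-mitochondrial UMIs in the control, 3.997% at 3 dpi, 1.83% in 5 dpi F and 3.30% in 5 dpi M. The 9 members other than Tnni1 were each lower in all 3 infarcted sections than in the control, as were 31.0% of the 3524 genes of at least 50 CPM in a section. With mitochondrial UMIs in the total 7 of 9 were, while Actn2 (851 CPM in the control and 863 at 3 dpi) and Actc1 (6596 CPM in the control and 6941 in 5 dpi M) each had an infarcted section above the control. Summed over the members, CPM was 75893 in the control (95% Poisson interval 75614 to 76173, counting error only), 39971 at 3 dpi (39836 to 40106), 18294 in 5 dpi F (18208 to 18380) and 32983 in 5 dpi M (32860 to 33107). The log2 ratio to the control was −0.93 at 3 dpi and −1.57 for the mean of the 5 dpi sections, without a test, since control and 3 dpi were single sections. With mitochondrial UMIs in the total the 3 dpi value was −0.53, and with TMM scaling over the section sums −1.42.

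**Figure D1:**
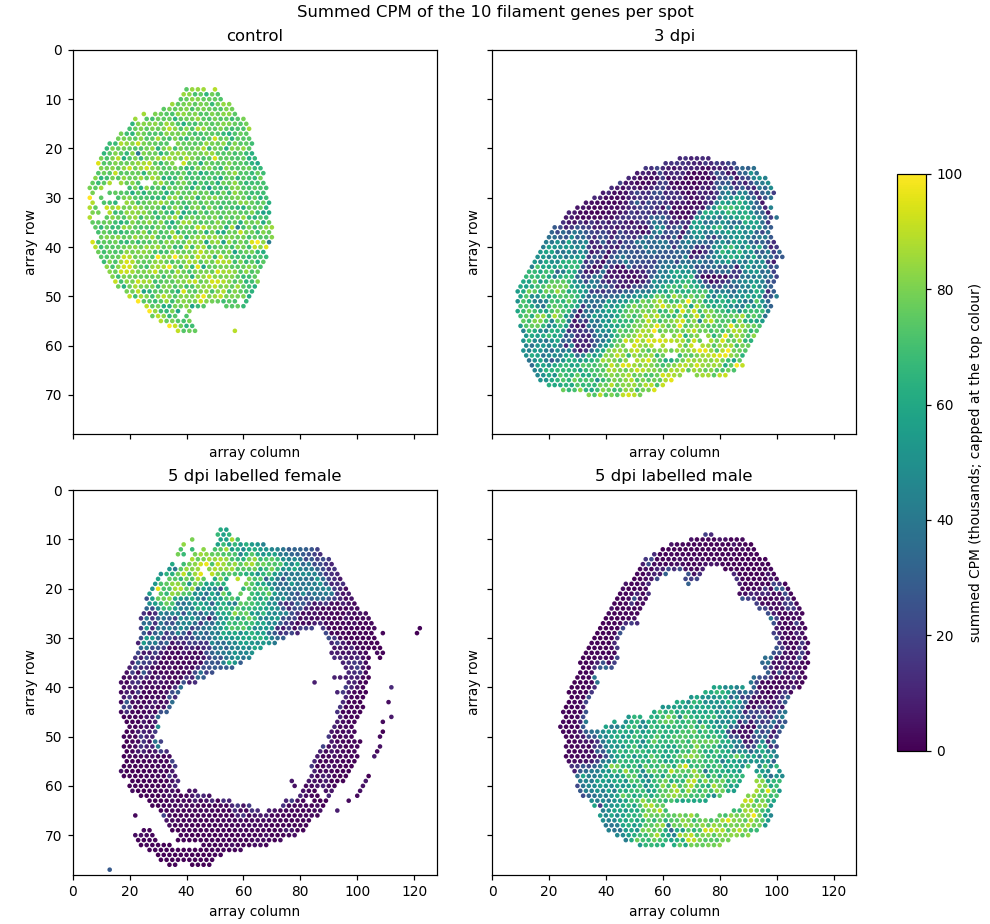
Summed CPM of the 10 filament genes in each kept spot of the 4 sections, drawn at array row and column, with colour capped at its upper end. No control spot was under 10000 CPM, against 12.8% of spots at 3 dpi and 51.8% and 32.2% at 5 dpi, and these low spots lie together.

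Per spot, the summed level of the filament genes had a median of 76446 CPM in the control and 47158 CPM at 3 dpi. It was 8631 CPM for 5 dpi F and 45482 CPM for 5 dpi M. The map of summed CPM by spot shows that low spots lay together, and the share of spots under 10000 CPM was 12.8% at 3 dpi, 51.8% in 5 dpi F and 32.2% in 5 dpi M, with no such spot in the control.

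Tnni3, adult cardiac troponin I, was at 9343 CPM in the control, 3672 CPM at 3 dpi, 1245 CPM in 5 dpi F and 2286 CPM in 5 dpi M. For Myl2 these levels were 15628, 6489, 2484 and 4588 CPM. Myl3 was at 13356, 5185, 2081 and 4205 CPM. For these genes and for Ttn (1797, 862, 446 and 659 CPM) the control was at least 2-fold above every infarcted section, and the section nearest to the control was 3 dpi.

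Tnnt2, troponin T, was at 7174, 4461, 2462 and 3545 CPM, a control 1.61 times the nearest section. Tpm1 was at 12685, 7239, 4039 and 6749 CPM, and Actc1 at 11017, 8324, 3917 and 8099 CPM. Tnnc1, troponin C, was at 3472, 2639, 1124 and 1994 CPM, and Actn2 at 1421, 1099, 493 and 855 CPM. For these 5 genes the control was 1.29 to 1.75 times the nearest infarcted section. The 2-fold rule thus held for 4 of the 9 members of at least 50 CPM, against 8.63% of the 3524 genes at that level. With mitochondrial UMIs in the total it held for 0 of 9, with ratios of 1.94 for Tnni3, 1.83 for Myl2 and 1.59 for Ttn and with Myl3 at 7997 in the control and 4075 at 3 dpi.

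All 9 of these members were higher at 3 dpi than in both 5 dpi sections, as were 40.0% of the same 3524 genes. With mitochondrial UMIs in the total 7 of 9 were, Tpm1 and Actc1 being higher in 5 dpi M than at 3 dpi. The 5 dpi sections differed from each other, with 5 dpi M above 5 dpi F for all 9. Only the counts of 5 dpi M held spots outside the marked tissue, 623 that were left out. All 9 members were lower in these than in its marked spots, with Tnnt2 at 1899 against 3545 CPM. The part of this in the difference was not tested. With 1 section at 3 dpi, the difference between days cannot be set against a spread at 3 dpi.

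**Figure D2:**
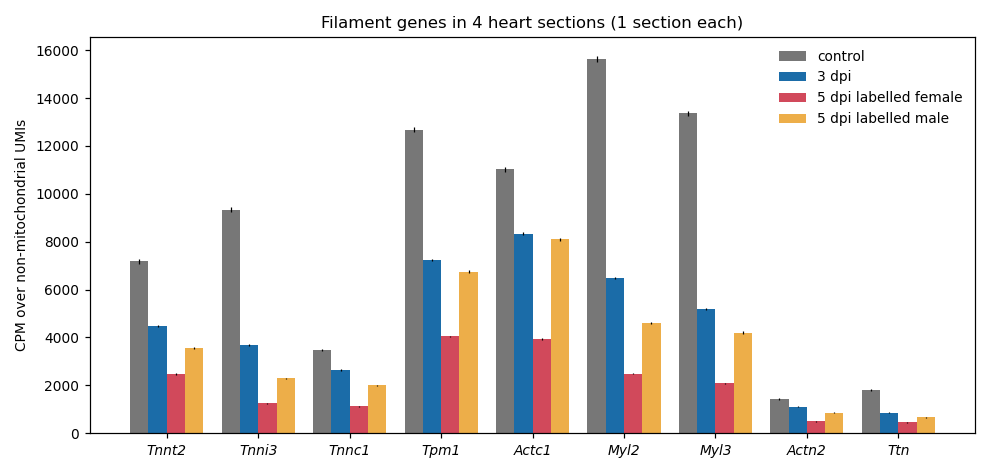
CPM over non-mitochondrial UMIs of 9 filament genes in the control, 3 dpi and both 5 dpi sections, with 95% Poisson intervals as error bars, which cover counting error only. Every gene is highest in the control and lowest in 5 dpi F, and Myl2 runs from 15628 CPM to 2484 CPM.

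To ask how the filament genes change with the loss of cardiomyocyte RNA inside a heart, spots were placed in 4 bands by the share of other cardiomyocyte genes in their non-mitochondrial UMIs. These 5 reference genes are Mb (myoglobin), Ckm (creatine kinase), Pln (phospholamban), Tcap (telethonin) and Ryr2 (the calcium release channel), and none of them is a member. A spot was in the lowest band under 0.25 times its section's own 90th percentile of this share, in the lower middle band from 0.25, in the upper middle band from 0.5 and in the highest band from 0.75. The lowest band held 752 spots at 3 dpi, 985 in 5 dpi F, 640 in 5 dpi M and 0 in the control, where 986 of 1146 spots were in the highest band. UMIs were summed per band and infarcted section (12 sums of 3 sections), and bands were compared by edgeR's quasi-likelihood test with the section as a block. Members and reference genes share the total that their shares are taken over. The p-values rest on the spread left between these 12 sums once section and band are fitted, which edgeR estimates in part across genes.

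In the lowest band all 9 tested members were lower than in the highest band, by log2 changes of −2.58 (Tpm1) to −4.73 (Myl3). Tnni1 did not pass the filter on low counts, so 9 of 10 members were tested. Called lower were 9 of 9, against 27.9% of the 9925 genes tested, and 27.4% of genes were called higher. With total UMIs in place of TMM these shares were 17.3% and 49.2%, again with 9 of 9 members called lower. The median change of the 9 was −3.38, against 0.04 over all genes tested. TMM scaling moves log2 changes by −0.45 relative to CPM for this band, −0.22 for the lower middle and −0.14 for the upper middle band.

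The members did not fall by like amounts. Tnni3 was at 1173 CPM in the lowest and 9486 CPM in the highest band at 3 dpi, 204 and 6146 CPM in 5 dpi F, and 257 and 6122 CPM in 5 dpi M. Tnnt2, its partner in the troponin complex, was at 2438 and 7258 CPM, 1095 and 7113 CPM, and 1426 and 6605 CPM. Tnni3 in the lowest band thus kept 12.4%, 3.31% and 4.20% of its highest-band level, and Tnnt2 33.6%, 15.4% and 21.6%. The fitted log2 changes were −4.54 (SE 0.29, adjusted p 2.50e-10, Benjamini-Hochberg adjustment of edgeR's quasi-likelihood test) for Tnni3 and −2.59 (SE 0.17, adjusted p 3.72e-10) for Tnnt2, lower in 3 of 3 sections.

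Tpm1 and Actc1 had fitted changes near that of Tnnt2, and no test compared these genes. Tpm1 was at 4038 and 12183 CPM in the lowest and highest band at 3 dpi, 1925 and 11641 CPM in 5 dpi F, and 2695 and 12839 CPM in 5 dpi M. Its log2 change was −2.58 (SE 0.16, adjusted p 2.57e-10, edgeR). Actc1 was at 5246 and 11194 CPM, 1341 and 12914 CPM, and 2703 and 15401 CPM, with a log2 change of −2.68 (SE 0.27, adjusted p 1.05e-07, edgeR). For both genes every lowest-band value lay below every highest-band value. Actc1 and skeletal actin, Acta1, have very similar coding sequences, and whether reads were split between them was not tested.

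Of the thick filament light chains, Myl2 was at 1942 and 17146 CPM at 3 dpi, 374 and 11976 CPM in 5 dpi F, and 478 and 11815 CPM in 5 dpi M. Myl3 was at 1496 and 13405 CPM, 275 and 10348 CPM, and 396 and 10683 CPM. Their log2 changes were −4.61 (SE 0.30, adjusted p 3.63e-10) and −4.73 (SE 0.33, adjusted p 7.22e-10) by edgeR's quasi-likelihood test. Myl3 kept the smallest part of its highest-band level of all 9 members in each section, 11.2%, 2.66% and 3.71%.

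Tnnc1, Actn2 and Ttn lay between these groups. Tnnc1 was at 1337 and 4559 CPM at 3 dpi, 288 and 4334 CPM, and 392 and 4448 CPM at 5 dpi, a log2 change of −3.42 (SE 0.30, adjusted p 1.54e-08, edgeR). Actn2 was at 566 and 1854 CPM, 135 and 1861 CPM, and 214 and 1776 CPM, a change of −3.23 (SE 0.27, adjusted p 8.67e-09, edgeR). Ttn was at 417 and 1711 CPM, 121 and 1707 CPM, and 157 and 1415 CPM, a change of −3.38 (SE 0.26, adjusted p 2.88e-09, edgeR). These 3 genes kept more at 3 dpi, 24.4% to 30.5%, than at 5 dpi, where they kept 6.64% to 12.0%. The same held for every other tested member, such as Actc1 with 46.9% at 3 dpi against 10.4% in 5 dpi F and 17.6% in 5 dpi M. The lowest band of 3 dpi also held more reference RNA, 0.274% of non-mitochondrial UMIs against 0.0818% in 5 dpi F and 0.110% in 5 dpi M, and its part in this was not tested.

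**Figure D3:**
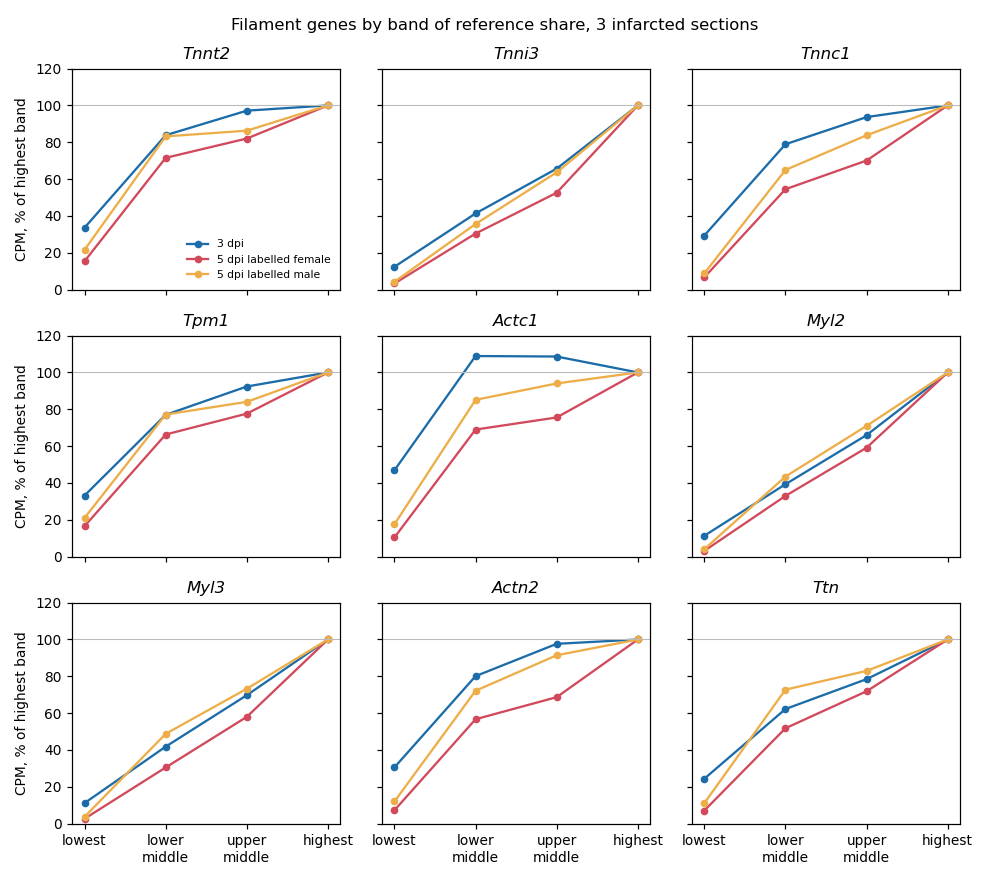
CPM of 9 filament genes in 4 bands of the reference share, as a percent of the highest band of the same section, for 3 dpi and both 5 dpi sections, with 1 point for each section and band. Tnni3, Myl2 and Myl3 fall at each step, while Tnnt2, Tpm1 and Actc1 stay at 66.3% to 109% in the lower middle band and drop in the lowest band.

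In the lower middle band 8 of 9 members were called lower, all but Actc1, against 11.3% of genes called lower and 10.5% called higher. Tnni3 was at 3921 CPM at 3 dpi, 1869 CPM in 5 dpi F and 2180 CPM in 5 dpi M, a log2 change of −1.72 (SE 0.25, adjusted p 7.36e-05, edgeR). Tnnt2 was at 6082, 5088 and 5494 CPM, a change of −0.55 (SE 0.16, adjusted p 0.0188, edgeR). Actc1, at 12192, 8908 and 13110 CPM, had a change of −0.46 (SE 0.25, adjusted p 0.212, edgeR) and was higher than in the highest band at 3 dpi and lower in both 5 dpi sections. Without 5 dpi F 3 of 9 members were called lower beside 7.22% of genes, and without 5 dpi M 5 beside 7.73%. With total UMIs in place of TMM 5 were called beside 7.12% (18.6% higher), and without the block for sections 1 beside 5.96%.

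In the upper middle band Tnni3 was the member called lower, 1 of 9, against 3.16% of genes, and 2.10% of genes were called higher. It was at 6230 CPM at 3 dpi, 3232 CPM in 5 dpi F and 3897 CPM in 5 dpi M, 65.7%, 52.6% and 63.7% of the highest band (log2 change −0.88, SE 0.25, adjusted p 0.0459, edgeR). Myl2 and Myl3 had changes of −0.76 (adjusted p 0.103) and −0.74 (adjusted p 0.149, edgeR), lower in 3 of 3 sections, and the other members −0.30 to −0.51. This call of Tnni3 was lost without 5 dpi F, without 5 dpi M, with total UMIs in place of TMM, without the block, with quartiles of spots and with bands set without Mb, while without 3 dpi 4 members were called beside 2.70% of genes.

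Set against the summed UMIs of the reference genes in place of the total, the filament genes fell into groups. Mb alone gave 64.4 (lowest band of 3 dpi) to 75.9 (upper middle band of 5 dpi F) of 100 reference UMIs, so this scale is mostly that of Mb. In the lowest band Tnni3, Myl2 and Myl3 changed by log2 values of 0.08 (SE 0.31), −0.01 (SE 0.31) and −0.13 (SE 0.31). Tpm1, Tnnt2 and Actc1 were at 2.11 (SE 0.32), 2.09 (SE 0.32) and 1.95 (SE 0.32), above 0 in 3 of 3 sections. Actn2, Ttn and Tnnc1 were at 1.39, 1.24 and 1.18. The reference UMIs that scale these values also set the bands, and the fit leaves out the error of their sum, which moves all genes together, so the values are a description and no p is given. The 6 of 9 past the threshold of the fit stand beside 99.2% of all genes and are no result about the members.

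In UMIs, Tnnt2 stood at 24.6 per 100 reference UMIs in the highest and 89.0 in the lowest band at 3 dpi, 31.1 and 134 in 5 dpi F, and 26.5 and 129.5 in 5 dpi M. Myl3 stood at 45.5 and 54.6 at 3 dpi, 45.2 and 33.6 in 5 dpi F, and 42.8 and 36.0 in 5 dpi M. The lowest-band values of Tnnt2 thus lay above its highest-band values in all 3 sections, while Myl3 moved up at 3 dpi and down in both 5 dpi sections.

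The reference genes also differed among themselves, from −0.77 (Ckm) to 0.77 (Pln) and 1.19 (Ryr2) relative to their own sum. The values of Actn2, Ttn and Tnnc1 are near that of Ryr2, and those of Tpm1, Tnnt2 and Actc1 are above those of all 5 reference genes. The median over all genes tested was 4.77, and that of the 42 tested genes of the other sarcomere list, described below, was 2.08. Tpm1, Tnnt2 and Actc1 thus lie near the median of that list and below the median of all genes. With quartiles of spots in place of the bands the values in the lowest band were higher for all 9 members, at 1.11 for Tnni3, 0.84 for Myl2 and 0.82 for Myl3, against 3.89 for Tpm1, 3.34 for Tnnt2 and 2.73 for Actc1, so that the values near 0 hold for these bands and not for quartiles. When 1 part of the reference UMIs set the bands and the other served as the denominator, the values in the lowest band were 2.02 for Tnnt2, 2.03 for Tpm1, 1.88 for Actc1, 0.01 for Tnni3, −0.08 for Myl2 and −0.20 for Myl3.

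**Figure D4:**
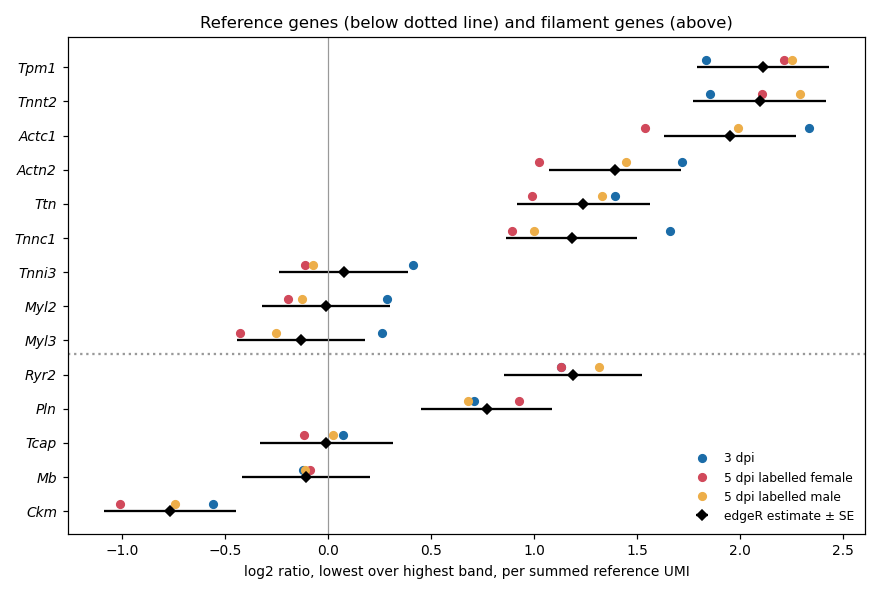
Log2 ratio of the lowest over the highest band per summed reference UMI for the 5 reference genes (below the dotted line) and 9 filament genes (above), with the edgeR estimate and its SE in black and the 3 infarcted sections in colour. Tpm1, Tnnt2 and Actc1 lie at 1.95 to 2.11, beyond Ryr2 at 1.19, and Tnni3, Myl2 and Myl3 lie near 0. The median over all genes tested, not drawn, was 4.77.

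In the middle bands the split was smaller. Per reference UMI in the lower middle band Actc1, Tnnt2 and Tpm1 were at 1.16, 1.05 and 0.94, and Tnni3, Myl2 and Myl3 were at −0.11, 0.00 and 0.05, with 6 of 9 members past the threshold beside 90.1% of genes. That count was 0 with quartiles (94.2% of genes) and 3 without the block (82.5%). Without 5 dpi F it was 3 (70%) and without 5 dpi M 2 (75.7%), so it is no result about the members. In the upper middle band Actc1 and Tnnt2 were at 0.53 and 0.49. There 0 of 9 passed edgeR's threshold beside 30.5% of genes, a share that was 0.314% without 5 dpi F and 0.199% without 5 dpi M. This count too rests on p-values that leave out the error of the reference sum.

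Ratios between members do not use the total, and use the reference genes only to order the spots. UMIs are counted at transcript ends and not per length, so a ratio is read for its change along the gradient and not for its size. In spots under 0.05 times the 90th percentile, Tnni3 stood at 43.0 UMIs per 100 Tnnt2 UMIs at 3 dpi and at 15.0 and 14.2 in 5 dpi F and 5 dpi M. In spots at or above that percentile it stood at 140, 97.6 and 105, and in the control at 144. Tnni3 per Tnnt2 thus fell with the reference share in all 3 infarcted sections, and lay lower in both 5 dpi sections than at 3 dpi in every step of the gradient.

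Myl2 ran from 250 UMIs per 100 Tnnt2 UMIs in the highest to 65.4 in the lowest step at 3 dpi, from 185 to 21.2 in 5 dpi F and from 188 to 23.7 in 5 dpi M. Myl3 ran from 199 to 54.7, 156 to 15.6, and 161 to 21.6. Tpm1 stayed between 152 and 214 per 100 Tnnt2 UMIs over all steps of the infarcted sections. The ratio of Tpm1 to Tnnt2 thus moved much less along the gradient than those of Tnni3, Myl2 and Myl3, and no test was made of this.

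Tnnc1, whose product sits in the same complex, ran from 65.7 to 52.6 UMIs per 100 Tnnt2 UMIs at 3 dpi, but from 65.4 to 16.3 and from 63.7 to 19.0 in the 5 dpi sections. Actc1 rose from 151 to 196 per 100 Tnnt2 UMIs at 3 dpi, and fell from 192 to 89.5 and from 236 to 135 at 5 dpi. Whether the days differ was not tested, with 1 section at 3 dpi.

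**Figure D5:**
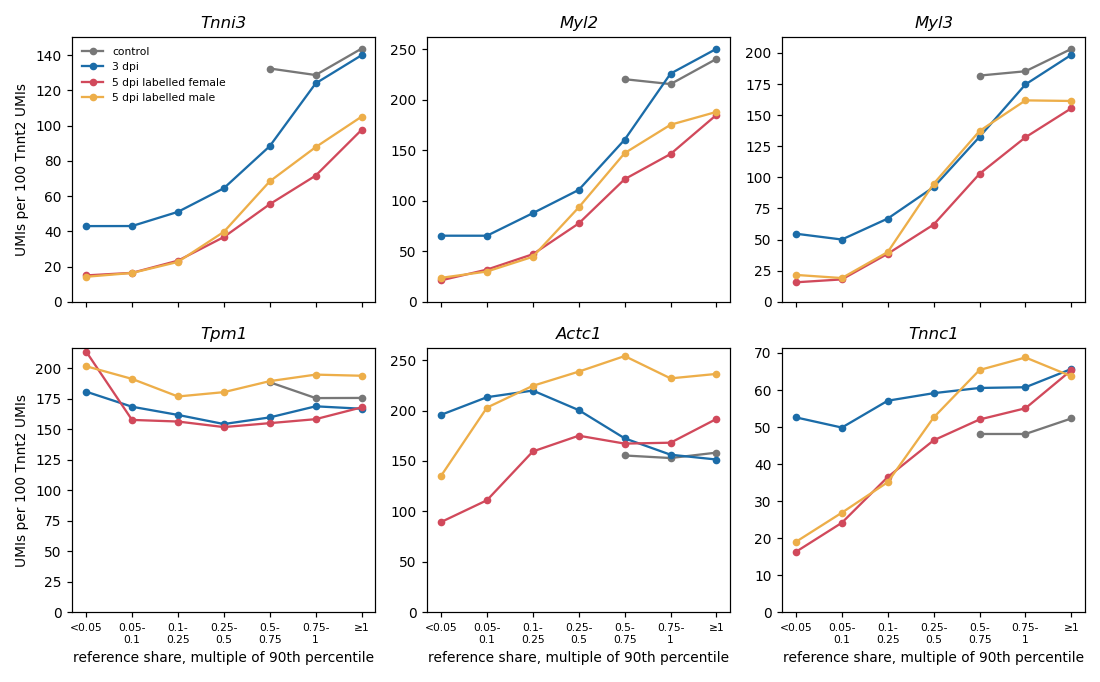
UMIs of 6 filament genes per 100 Tnnt2 UMIs in 7 steps of the reference share, as a multiple of the section's 90th percentile, in the control, 3 dpi and both 5 dpi sections, drawn where a step held at least 20 spots. Tnni3, Myl2 and Myl3 fall toward low steps in the 3 infarcted sections, and Tpm1 stays between 152 and 214 in them.

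As shares of all filament UMIs, 7 of the 10 members moved the same way in 3 of 3 sections between the highest and the lowest band. Tpm1 rose by 11.8 percentage points ± 5.15 (SD, n = 3), Actc1 by 9.18 ± 4.81 and Tnnt2 by 6.49 ± 2.40. Myl2 fell by 11.2 ± 0.13 points, Myl3 fell by 9.97 ± 0.85 and Tnni3 fell by 5.64 ± 0.13. Tnni1 rose by 0.026 points. With quartiles of spots in place of the bands Tpm1 rose by 23.5 points and Actc1 by 2.64. Tnnc1, Actn2 and Ttn moved by −0.58, 0.08 and −0.18 points on average, with sections on both sides of 0, and that of Ttn was −0.30 without 3 dpi and −0.062 without 5 dpi F. In the lowest band of 5 dpi F Tpm1 alone made up 33.4% of filament UMIs, against 17.1% in its highest band.

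Tnni1, the troponin I of the fetal heart, was close to absent. It gave 0 UMIs in the control, where 3 UMIs would be 0.80 CPM, 14 UMIs (1.67 CPM) at 3 dpi, 21 (2.20 CPM) in 5 dpi F and 19 (2.29 CPM) in 5 dpi M. In the lowest band it was at 2.02, 2.59 and 2.62 CPM, and in the highest band at 1.46, 1.77 and 2.50 CPM, with overlapping 95% Poisson intervals in each section. Per 10000 Tnni3 UMIs the 3 infarcted sections together gave 49.8 Tnni1 UMIs in the lowest band (39 UMIs, interval 35.4 to 68.1) and 2.80 in the highest (9 UMIs, 1.28 to 5.31). The denominator fell while Tnni1 stayed at a few CPM, and the ratio of the lowest band was 17.2 at 3 dpi, 127 in 5 dpi F and 102 in 5 dpi M. These values all lie outside the pooled interval, which covers counting error of Tnni1 only and no spread between hearts. Without 3 dpi the pooled ratio was 116, and without 5 dpi F 32.7.

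Isoforms of the members in other muscles or in non-muscle cells, with the myosin heavy chains that pair with the light chains, made a list of 15 partners, of which 13 were tested. Called higher in the lowest band were 6 and called lower 4, beside 27.4% and 27.9% of all genes, so the count of lower partners is near that of all genes. Tpm2, a tropomyosin of smooth and slow muscle, was at 61.4 CPM in the highest and 303 CPM in the lowest band at 3 dpi, 87.6 and 532 CPM, and 60.6 and 414 CPM at 5 dpi, a log2 change of 2.13 (SE 0.18, adjusted p 8.68e-09, edgeR). Tpm3 and Tpm4 had changes of 1.49 and 1.02, and the non-muscle alpha-actinin Actn1 and the smooth muscle actin Acta2 changes of 1.90 (adjusted p 2.21e-08, edgeR) and 1.49. Tpm1 itself was lower in that band in all 3 sections.

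Tnnt3, fast skeletal troponin T, was also called higher, by 1.90 (SE 0.56, adjusted p 0.00746, edgeR), but stood at 13.7 to 29.4 CPM in the lowest bands and at 1.46 to 9.73 CPM in the highest. Acta1, the skeletal actin of the fetal heart, was lower in the lowest band, with a log2 change of −2.44 (SE 0.39, adjusted p 2.91e-05, edgeR). It was at 911, 1595 and 1180 CPM in the highest band of the infarcted sections, 1458, 2054 and 3788 CPM in the lower middle band and 296 CPM in the highest band of the control. Myh7, the slow myosin heavy chain of the fetal heart, was at 287, 664 and 213 CPM in the highest and 335, 744 and 1058 CPM in the lower middle band, and lower in the lowest, at 145, 49.9 and 57.4 CPM. Myh6, the adult form, changed by −4.38 in the lowest band. Actn4, Myl4 and Tnni2 did not pass the test in the lowest band (0.34, 0.44 and 0.56), Tnnt1 had a change of −2.48, and Myl7 and Tnnc2 were too low to be tested. Acta1 and Myh7 in the upper middle band had changes of 0.50 (adjusted p 0.513) and 0.86 (adjusted p 0.301, edgeR), higher in 3 of 3 sections.

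Other sarcomere genes, a list of 45 of which 42 were tested, mostly fell with the members. In the lowest band 33 were called lower and 5 higher, beside 27.9% and 27.4% of all genes, with a median log2 change of −2.48 against 0.04 over all genes. The lowest were Myot (myotilin, −4.39), Myh6 (−4.38) and Myoz2 (calsarcin, −3.85), and the highest Tpm2, Actn1 and Tnnt3. In the lower middle band 17 were called lower and 6 higher, beside 11.3% and 10.5% of all genes. In the upper middle band, where the counts are close to the 3.16% and 2.10% of all genes, 2 were lower, the ubiquitin ligase gene Fbxo32 (−0.87, adjusted p 0.0353, edgeR) and Myoz2 (−0.76, adjusted p 0.049), and 1 was higher, Tpm2 (0.93, adjusted p 0.00927, edgeR).

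Within the highest band, where the share of reference genes was highest, the summed members differed less from the control than in whole sections. Summed CPM was 76309 in the control, 78797 at 3 dpi, 68042 in 5 dpi F and 71106 in 5 dpi M. Myl3 (13493, 13405, 10348 and 10683 CPM) and Ttn (1789, 1711, 1707 and 1415 CPM) were highest in the control, as were 21.6% of the 2942 genes compared. Tnnc1 (3502, 4559, 4334 and 4448 CPM), Actn2 (1430, 1854, 1861 and 1776 CPM) and Actc1 (11081, 11194, 12914 and 15401 CPM) were lowest in the control, as were 38.7% of genes. Tnni3 was at 9391 CPM in the control and 9486 CPM at 3 dpi, above both 5 dpi sections at 6146 and 6122 CPM. The highest bands are set within each section and held 3.13%, 2.95%, 2.29% and 2.49% reference RNA. Per 100 reference UMIs Myl3 stood at 43.1, 45.5, 45.2 and 42.8 and Ttn at 5.71, 5.81, 7.46 and 5.67, so neither was highest in the control on that scale, while Tnnc1, Actn2 and Actc1 were again lowest there. In CPM, Tnni3 was 1 of 6 members that were higher at 3 dpi than in both 5 dpi sections, with Tnnt2, Tnnc1, Myl2, Myl3 and Ttn, against 32.6% of genes. Per reference UMI 3 of them were, Tnni3, Myl2 and Myl3.

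The genes with patterns most like the members over 14 sums of bands and sections, all from the same 4 libraries, were sought among 4137 genes by Pearson's correlation of log2(CPM + 1). Among those nearest to the summed members were Myh6 (r 0.996) and the small heat shock gene Hspb6 (0.993). Tnnt2 lay nearest to Ndrg2 (0.994), Coro6 (0.994) and the glycolytic gene Aldoa (0.992), and Tpm1 lay close to Ndrg4 (0.991) and Fxyd1 (0.990). Actc1 lay nearest to Csrp3, a Z-disc gene (0.981), Popdc2 (0.9746) and Apobec2 (0.974). Tnnc1 and Actn2 both lay nearest to Hspb6 (0.994 and 0.993), and Ttn to Pde4dip (0.998), the Z-disc gene Ldb3 (0.997) and Myh6 (0.993). Chosen after the values were seen, the nearest to Tnni3 was Atp2a2, the calcium pump of the sarcoplasmic reticulum (0.998), and to Myl2 and Myl3 the mitochondrial creatine kinase gene Ckmt2 (0.998 and 0.997). The value for Tnni1, 0.782 with Psmc2, rests on few UMIs.

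Markers of other cells and RNA measures moved along the same bands. Fibroblast markers (7 genes) summed to 2715, 5241 and 2741 CPM in the highest and 13525, 25031 and 22554 CPM in the lowest bands of the 3 infarcted sections, and macrophage markers (8 genes) to 2663, 3202 and 2096 CPM and 9964, 15010 and 14004 CPM. Smooth muscle markers (6 genes) went from 2510, 3380 and 1997 CPM to 3996, 3430 and 3253 CPM. The mitochondrial share fell from 39.8%, 41.0% and 29.1% to 8.25%, 3.73% and 2.60%. In the lowest band, beside 27.4% of all genes called higher and 27.9% lower, 5 of 7 fibroblast markers were called higher and 1 lower, 8 of 8 macrophage markers higher, 3 of 6 smooth muscle markers higher and 2 lower, and 5 of 6 endothelial and 4 of 4 erythroid markers lower. Atrial markers (5 genes, 2 or 3 of them at 0 in each band sum) summed to 3231, 8658 and 2788 CPM in the highest and 19162, 23708 and 28902 CPM in the lower middle band. In the lowest band they summed to 10891, 4920 and 9007 CPM, where 5 dpi F lay below its highest band. Of this list Myl7 was at 0 to 5.17 CPM and Myl4 at 1.46 to 18.4 CPM. The rest of the list, Nppa, Sln and Bmp10, thus carried nearly all of each sum. The sums were not split among these genes and are not read as a measure of atrial cells. The part of all these cell markers in the levels of the filament genes, including Tpm1, which smooth muscle and fibroblasts also express, was not tested.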

How the data were processed

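Raw UMI counts per gene and spot were deposited by the authors for 4 Visium sections, made with Space Ranger 1.3.1 against a mouse reference with a GFP sequence added and not normalized. The build is mm10 per the labels, while the study's methods name another, and no coordinate was taken from the files. Tissue flags, set by hand by the authors, and array positions were deposited beside them. Tissue spots under 500 UMIs, under 250 genes or over 50% mitochondrial UMIs were left out, as in the study. In the 5 dpi section labelled male (5 dpi M), 623 spots of the matrix are not marked as tissue and were left out.

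The total for CPM leaves out the UMIs of 13 mitochondrial genes. Counts were summed per section and band and tested in R 4.3.3 with limma 3.58.1 and edgeR 4.0.16, whose quasi-likelihood test was run after TMM scaling and filterByExpr, with the section as a block and Benjamini-Hochberg adjustment over all genes tested, at 0.05. A second fit used the summed UMIs of the 5 reference genes as library size. Hearts are the replicates, the control entered no fit, and single sections were compared as CPM with exact 95% Poisson intervals, which cover counting error only. DESeq2 1.42.0 and other scalings, filters, bands, reference genes and left-out sections were tried. Sums and intervals were made with pandas 2.3.3, NumPy 2.4.6 and SciPy 1.17.1 under Python 3.11.15.

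The fits were tested on simulated data with known changes. In the second fit the p-values leave out the error of the reference sum, and in simulated data with reference genes as variable as other genes its share of false calls varied more between simulations than that of the first and was higher in some, so its values are given without p.

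Members and lists were chosen with earlier results of these data known. Named are all members, their isoform partners, the up to 3 highest and lowest called genes of the other sarcomere list in the lowest and upper middle bands, and, among genes of at least 50 CPM in a band sum, the up to 3 most like the summed members and most like each member that stood apart relative to the reference genes. Some genes that this rule names are not reported here. Promoters are from RefSeq (GRCm38.p6).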

Additional observations from a re-analysis of the deposited data

Results flagged for a closer look

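Several members moved one way at 3 dpi and the other way in both 5 dpi sections when a band was set against the highest band of its own section. With 1 section at 3 dpi, none of these differences was tested, and each value is the log2 ratio at 3 dpi minus the mean of the 5 dpi sections.

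In CPM, Actc1 in the upper middle band was at 0.12 at 3 dpi and at −0.40 and −0.09 in 5 dpi F and 5 dpi M, a difference of 0.37. In the lower middle band it was at 0.12, −0.54 and −0.23, a difference of 0.51.

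Per reference UMI, Tnni3 differed by 0.18 in the upper middle, 0.39 in the lower middle and 0.50 in the lowest band, where it was at 0.41 at 3 dpi and −0.11 and −0.07 at 5 dpi. Myl2 and Myl3 differed in the lowest band by 0.45 and 0.60. The lowest band of 3 dpi held more reference RNA, 0.274% of non-mitochondrial UMIs against 0.0818% and 0.110% at 5 dpi, and the part of this in the differences was not tested.

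The marked tissue of 5 dpi M gave 19 Tnni1 UMIs, 2.29 CPM. In the 623 spots of that section outside the marked tissue, Tnni1 gave 4 UMIs, 1.79 CPM, against 0 UMIs in the control. Tnnt2 and Tnni3 were at 1899 and 1001 CPM there, and whether these spots lie over tissue was not tested.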

How the results depend on the processing

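In the lowest band all 9 members were called lower under each of the 11 alternatives tried, and 6 passed the threshold higher per reference UMI under each of 8, a count that is no result about the members. With quartiles, the values per reference UMI of Tnni3, Myl2 and Myl3 in the lowest band moved from near 0 to 1.11, 0.84 and 0.82. In the lower middle band 8 members were called, against 5 without TMM, 1 without the block for sections, and 3 to 9 when a section was left out. In the upper middle band 1 was called, against 0 without TMM, with quartiles of spots, with bands set without Mb or without the block, 3 with multiples of the 75th percentile, 6 without a filter on low counts, and 0 to 4 when a section was left out. Over these settings genes called lower made up 5.96% to 8.69% in the lower middle and 0% to 4.34% in the upper middle band. Genes called in the lower middle band numbered 2162, but 4456 with quartiles, 1142 without the block and 1352 to 1524 when a section was left out. In the upper middle band they numbered 522, but 786 without a filter, 149 with quartiles, 115 without Mb, 0 without the block and 31 to 361 when a section was left out. Called lower per reference UMI in the lowest band were 0 to 1 members, and called higher in the upper middle band 0 to 2, the latter beside 0.199% to 53.2% of all genes, when a section was left out. The summed members at 3 dpi over control were at −0.93, and at −0.53 with mitochondrial UMIs in the total and −1.42 with TMM. Tnni1 per 10000 Tnni3 UMIs in the lowest band was 49.8, and 94.0 with quartiles and 32.7 to 116 when a section was left out. The mean change in share of Actn2, 0.08 points, was −0.35 with quartiles and −0.22 (without 3 dpi) to 0.32 (without 5 dpi F) when a section was left out, and that of Tnnc1, −0.58 points, was −1.56 (without 3 dpi) to 0.0047 (without 5 dpi M). That of Ttn, −0.18 points, was −0.30 (without 3 dpi) to −0.062 (without 5 dpi F). The causes were not tested. Bands of 1 section are paired through the block for sections, and no replicate number pairs the groups. Counts of 0 to 39 Tnni1 UMIs limit any statement on that gene.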
